A study of Homo sapiens with 18 samples.

Results

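The genes described here are 9 subunits of Polycomb repressive complex 1 (PRC1) that are partners or alternatives of PCGF6: the PCGF paralogs PCGF1, PCGF2, PCGF3, BMI1 and PCGF5, and the accessory subunits KDM2B, BCOR, BCORL1 and AUTS2. They were chosen by name, with earlier results of these data known. All 9 are among the 57133 genes of the count table and among the 17672 that passed the filter on low counts. RNA-seq was performed on PGP1 cells, an established human induced pluripotent stem cell (iPSC) line cultured in mTeSR1 medium on Matrigel. Wild-type cells (WT) gave 2 libraries. The PCGF6 knockout (PCGF6-KO) was made with Cas9 and a pair of guide RNAs against the first exon of PCGF6, and 2 knockout lines, each grown from 1 clone, gave 2 libraries each. The 4 knockout libraries therefore stand for 2 clones. The study reports a PCGF6 deletion of a different length in each clone, on both alleles. No other allele and no treatment is named for either group. Neither the labels nor the methods say whether the libraries of a line came from separate cultures, so the p-values measure the spread between these libraries, which may be technical.

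PRC1 complexes are built around RING1 or RNF2, which place ubiquitin on histone H2A, and each complex holds 1 of 6 PCGF proteins. The PCGF protein decides which other subunits can join. PCGF2 (also MEL18) and BMI1 (also PCGF4) form the canonical complexes PRC1.2 and PRC1.4, in which a CBX protein reads the H3K27me3 mark left by PRC2 and a PHC protein drives compaction. PCGF1 forms PRC1.1 with KDM2B, BCOR and BCORL1, and KDM2B brings that complex to unmethylated CpG islands. PCGF3 and PCGF5 form PRC1.3 and PRC1.5, to which AUTS2 can bind. PCGF6 forms PRC1.6, which reaches its promoters through the DNA-binding proteins MGA and MAX, which bind E-boxes, and E2F6.

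The libraries held between 15877396 and 18918609 counts. PCGF6 itself stood at 16.5 and 18.0 CPM (read counts scaled to the size of the library) for WT, while clone 1 had 5.18 and 5.67 CPM and clone 2 had 10.3 and 9.91 CPM. All 4 knockout libraries lay below both WT libraries, and clone 2 kept a higher level than clone 1, with a log2 difference of 0.90 ± 0.14 (SE, adjusted p = 5.44e-05). A gene count takes in reads from the exons behind the deleted part, so that it checks the labels only in direction. The study checked the knockout with genomic PCR, qRT-PCR and Western blot, and the counts here do not give a protein level. Among markers of cell state, 7 pluripotency genes, none at 0 in any group, summed to 6850 to 7150 CPM in WT and to 5790 to 6040 CPM in the knockout libraries. By the rule given below, 1 of them, SOX2, was called lower, where 8.7% of all genes were. SOX2 was called in clone 2 (log2 fold change -1.04), while in clone 1 it was under the fold threshold (-0.41). By adjusted p alone 5 of the 7 passed, NANOG higher and the others lower, against 37.1% of all genes. The 12 mesendoderm genes summed to 156 to 158 CPM in WT, with MESP1, SOX17 and HAND1 at 0 counts. In the knockout libraries they summed to 1170 to 1420 CPM, and the 11 tested were all called higher, where 14.9% of all genes were. KDR alone gave 150 and 149 CPM of this sum in WT and 454 to 495 CPM in the knockout libraries. The 5 neuroectoderm genes summed to 349 to 395 CPM in WT and to 625 to 742 CPM in the knockout libraries. Most of this sum was NES, at 277 and 322 CPM in WT and 592 to 709 CPM in the knockout libraries. OTX2 fell from 72.0 and 72.1 CPM in WT to between 28.8 and 31.6 CPM in the knockout libraries. SOX1 was at 0 counts in clone 2, and of the 4 tested 2 were called higher and 1, OTX2, lower, where 23.6% of all genes were called. The part of these marker levels in the values below was not tested, and in bulk RNA fewer cells of a type and less RNA per cell cannot be told apart.

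The promoters of the 4 members that passed the test below (BMI1, PCGF1, BCOR and AUTS2) are printed because PRC1.6 is known to bind E-boxes and E2F6 sites. Each sequence comes from RefSeq on GRCh38.p14 and runs from 250 bases before the start of the gene to 50 bases after it, on the strand of the gene. Lower case is the sequence, and capitals mark the E-box CACGTG.
BMI1, chr10:22320849-22321148, + strand: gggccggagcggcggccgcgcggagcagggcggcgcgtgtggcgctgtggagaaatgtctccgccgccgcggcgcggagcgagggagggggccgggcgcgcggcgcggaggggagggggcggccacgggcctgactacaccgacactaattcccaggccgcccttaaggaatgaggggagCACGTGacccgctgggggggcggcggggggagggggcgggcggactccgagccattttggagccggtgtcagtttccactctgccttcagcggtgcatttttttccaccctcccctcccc
PCGF1, chr2:74507646-74507945, - strand: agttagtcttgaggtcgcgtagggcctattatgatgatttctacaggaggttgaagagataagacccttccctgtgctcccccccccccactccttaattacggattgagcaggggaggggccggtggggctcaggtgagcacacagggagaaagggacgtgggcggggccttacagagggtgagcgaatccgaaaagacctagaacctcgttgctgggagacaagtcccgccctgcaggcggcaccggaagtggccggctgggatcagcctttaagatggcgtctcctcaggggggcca
BCOR, chrX:40177228-40177527, - strand: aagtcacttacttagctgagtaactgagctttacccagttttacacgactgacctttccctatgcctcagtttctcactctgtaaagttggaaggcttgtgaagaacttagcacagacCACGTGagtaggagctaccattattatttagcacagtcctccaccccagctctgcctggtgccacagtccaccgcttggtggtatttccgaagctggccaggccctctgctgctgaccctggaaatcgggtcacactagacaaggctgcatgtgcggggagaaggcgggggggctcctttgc
AUTS2, chr7:69598225-69598524, + strand: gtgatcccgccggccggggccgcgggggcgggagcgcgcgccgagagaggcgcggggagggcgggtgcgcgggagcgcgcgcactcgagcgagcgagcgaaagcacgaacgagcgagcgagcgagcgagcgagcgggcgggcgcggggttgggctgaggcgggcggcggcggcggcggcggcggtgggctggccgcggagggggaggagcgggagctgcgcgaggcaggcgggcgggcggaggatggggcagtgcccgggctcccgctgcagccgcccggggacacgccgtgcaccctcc
The E-box lay 70 bases before the start of BMI1 and 132 bases before the start of BCOR shown here. BCOR and BMI1 each have another promoter in RefSeq, neither with an E-box. Among the 18 promoters that RefSeq gives for the 9 members, 2 held the E-box, against 7.26% of all 35116 promoters of the same length. The E2F6 motif GCGGGAA, searched on both strands, was in 0 of the 18 and in 6.55% of all promoters, and the E-box, which reads the same on both strands, can share 1 end base with it. The 4 windows differed in base composition: AUTS2 held 55 CpG dinucleotides at 82.3% G and C, BMI1 36 at 73.3%, PCGF1 14 at 59.7% and BCOR 7 at 53.0%. The other promoter of BMI1 held 65 at 91.0%, and that of BCOR 29 at 69.3%. A letter match describes the window and does not show that a factor binds there.

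In WT cells the members covered a wide range of levels. Scaled by the gene length deposited with the counts (CPM per kilobase, the only scale on which genes are compared here), PCGF2 was the highest at 34.9 ± 0.337 (SD, n = 2) and BMI1 the lowest at 0.715 ± 0.00239. Between them, in falling order, stood BCOR at 23.2 ± 1.56, PCGF3 at 13.4 ± 0.496, KDM2B at 12.9 ± 0.0356, AUTS2 at 8.39 ± 0.0179, PCGF1 at 2.45 ± 0.467, BCORL1 at 1.75 ± 0.191 and PCGF5 at 1.11 ± 0.0761 CPM per kilobase. PCGF6, at 5.72 ± 0.357 CPM per kilobase, lay between AUTS2 and PCGF1. PCGF3 and KDM2B, whose means differ by less than their summed SDs, were the only neighbours in this order not separated beyond their spread. Among the PCGF genes the order in WT was thus PCGF2, PCGF3, PCGF6, PCGF1, PCGF5 and BMI1. The level of PCGF2 depends most on the length used: over its 1351 exon bases not shared with another gene it was 90.8 ± 0.876 CPM per kilobase in WT, and the order of the PCGF genes was as above.

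**Figure D1:**
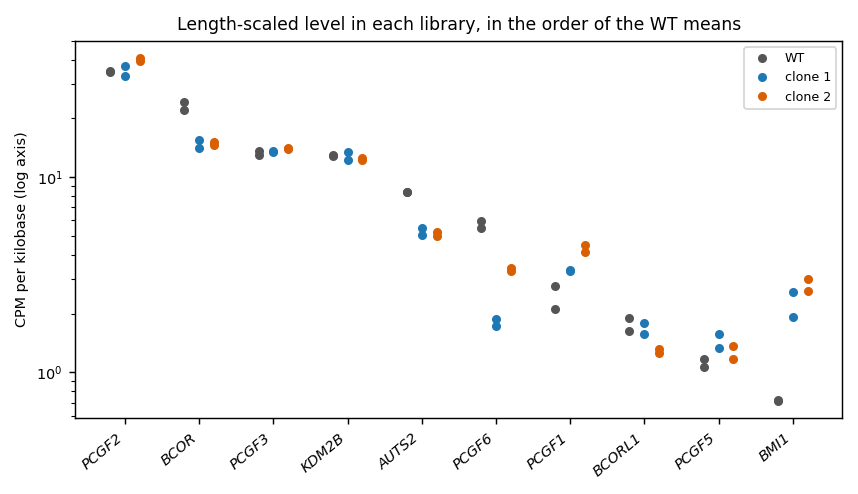
Level of the 9 members and of PCGF6 in each library, in CPM per kilobase of deposited gene length on a log axis, with genes in the order of their WT means and 1 point per library (grey WT, blue clone 1, orange clone 2). BMI1 is the lowest gene in WT at 0.715 and stands above BCORL1 and PCGF5 in the 4 knockout libraries, while BCOR and AUTS2 drop and keep their places near the top.

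In the knockout the upper part of the order stayed as it was, and the lower part was rearranged. PCGF2 at 37.6 ± 3.5 CPM per kilobase (SD, n = 4), BCOR at 14.8 ± 0.609, PCGF3 at 13.8 ± 0.323, KDM2B at 12.6 ± 0.625 and AUTS2 at 5.2 ± 0.222 kept ranks 1 to 5. Single libraries of BCOR and PCGF3, and of PCGF3 and KDM2B, overlapped there. PCGF1 followed at 3.83 ± 0.599 CPM per kilobase, then PCGF6 at 2.58 ± 0.904 and BMI1 at 2.52 ± 0.458, and neither step was larger than the summed SDs. BCORL1 at 1.48 ± 0.243 and PCGF5 at 1.36 ± 0.169 CPM per kilobase came last, with overlapping libraries.

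Differential expression was called at an adjusted p under 0.05 with an absolute log2 fold change over 0.6. Comparing the 4 knockout libraries with WT, 4 of the 9 members (44.4%) were called: BMI1 and PCGF1 were higher, and BCOR and AUTS2 were lower. Over all genes tested, 23.6% were called (14.9% higher and 8.7% lower). The median log2 fold change was 0.05 over the 9 members and 0.004 over all genes. BMI1 and AUTS2 were called whichever library was left out, and without WT replicate 2 they were the only members called. By adjusted p alone the same 4 members passed, where 37.1% of all genes did. In CPM, 5 members had knockout libraries that did not overlap WT (PCGF1, BMI1 and PCGF5 higher, BCOR and AUTS2 lower), a separation that 57.1% of all genes showed. The members were named by function, with earlier results of these data known, and their share was not tested against other genes.

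**Figure D2:**
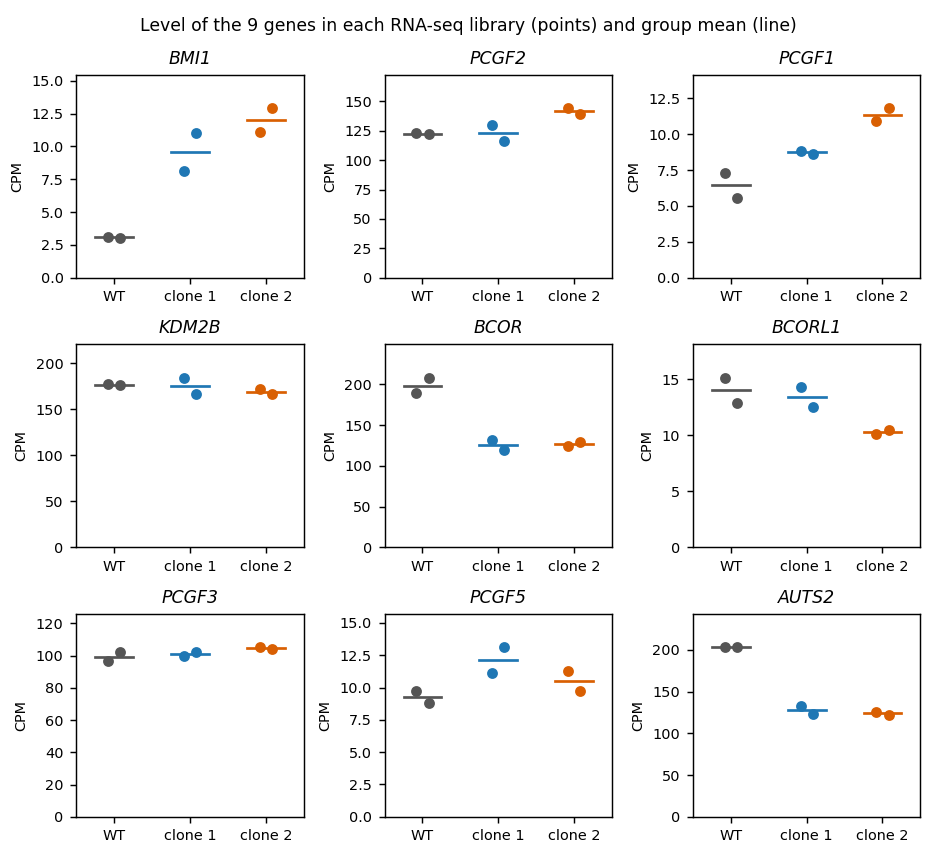
Level of each of the 9 members in CPM (axes from 0), with 1 point per library and a line at the mean of the 2 libraries of WT, clone 1 and clone 2. BMI1 rises from 3.07 and 3.06 CPM in WT to between 8.16 and 12.9 CPM in the knockout, BCOR and AUTS2 fall in all 4 knockout libraries, and PCGF2, PCGF3 and KDM2B stay near their WT levels.

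Of the canonical subunits, BMI1 rose most and PCGF2 was not called. BMI1, a repressor of the CDKN2A locus long studied in stem cell self-renewal, gave 50 and 51 counts in the WT libraries, 156 and 200 in clone 1, while clone 2 had 202 and 207. Scaled to CPM, the WT libraries stood at 3.07 and 3.06, those of clone 1 at 8.16 and 11.0, and those of clone 2 at 11.1 and 12.9. Every knockout library thus lay far above both WT libraries, and the lowest was the first of clone 1. The fold change was 3.51, or 1.81 ± 0.21 on the log2 scale (SE, 95% interval 1.33 to 2.30, adjusted p = 0.000221). PCGF2, the more abundant canonical paralog, stood at 123 and 122 CPM in WT, 130 and 116 in clone 1, while clone 2 had 144 and 139. Clone 1 overlapped WT and clone 2 lay above it. Its log2 fold change over both clones was 0.11 ± 0.09 (SE, 95% interval -0.09 to 0.31, adjusted p = 0.377). Of the exon bases of PCGF2, 61.5% lie under exons of genes on the other strand, CISD3 above all, and whether the authors counted by strand is not given in the sources used here.

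BMI1 (GRCh38 chr10:22321099-22331484, + strand) lies just behind COMMD3, and GENCODE release 44 also holds the read-through gene COMMD3-BMI1, which joins them. Of the exon bases of BMI1, 22.8% belong to the read-through as well. The read-through has no exon base of its own, since 904 of its 1904 bases are in COMMD3 and 1000 in BMI1, and its count was 0 in all 6 libraries. If reads on shared bases were left uncounted, the level of BMI1 would be understated alike in every library: over the 3395 unshared bases it came to 0.902 ± 0.00302 CPM per kilobase in WT (SD, n = 2) and 3.18 ± 0.578 in the knockout (n = 4). COMMD3 itself, which encodes an endosomal sorting subunit, gave 0 and 4 counts in the WT libraries, 12 and 9 in clone 1, while clone 2 had 5 and 14. At so few counts its log2 fold change of 2.15 ± 0.86 (SE) depends on the model and did not pass the test over both clones (adjusted p = 0.0819), though it did in each clone alone (0.0374 in each). The processed pseudogene BMI1P1, a copy of BMI1 on chromosome X, had 0 counts in 4 libraries and 3 and 2 in clone 2, far fewer than the difference in BMI1.

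Of the PRC1.1 subunits, PCGF1 was higher and BCOR lower in the knockout, and BCORL1 and KDM2B were not called. PCGF1 (chr2:74505043-74507695, - strand), the subunit that holds BCOR or BCORL1 in the complex, stood at 7.31 and 5.57 CPM in WT, 8.84 and 8.64 in clone 1, while clone 2 had 10.9 and 11.8. All knockout libraries were above WT, clone 1 by little and clone 2 by more. The log2 fold change was 0.64 ± 0.19 (SE, 95% interval 0.21 to 1.08, adjusted p = 0.0281, 1.56-fold). This call rested on few counts and on single libraries: the adjusted p was 0.0514 without WT replicate 1, 0.225 without WT replicate 2 (where the log2 fold change was 0.46), 0.0549 without clone 2 replicate 1 and 0.0548 without clone 2 replicate 2.

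BCOR (chrX:40049815-40177329, - strand), the corepressor that bridges PCGF1 to KDM2B and carries mutations in X-linked developmental syndromes, stood at 189 and 208 CPM in WT, 132 and 120 in clone 1, while clone 2 had 124 and 129. The 4 knockout libraries lay within a narrow band below WT. Its log2 fold change was -0.65 ± 0.07 (SE, 95% interval -0.80 to -0.50, adjusted p = 9.09e-05), a 1.57-fold decrease. That value is close to the fold threshold: without WT replicate 2 it was -0.58 and no longer called, with an adjusted p of 0.00356. BCORL1, the paralog that can take the place of BCOR, was less abundant per length (1.75 against 23.2 CPM per kilobase in WT) and stood at 15.1 and 12.9 CPM in WT, 14.3 and 12.5 in clone 1, while clone 2 had 10.1 and 10.5. Clone 1 overlapped WT and clone 2 lay below it, and the log2 fold change over both clones was -0.24 ± 0.16 (SE, 95% interval -0.61 to 0.13, adjusted p = 0.279). KDM2B, the CpG-binding histone demethylase of the complex, had 177 and 176 CPM in WT, 184 and 166 in clone 1, while clone 2 had 172 and 166. Its libraries overlapped and its log2 fold change of -0.04 ± 0.06 (SE) had a 95% interval of -0.18 to 0.11 (adjusted p = 0.702).

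Of the PRC1.3 and PRC1.5 subunits, AUTS2 fell while neither PCGF gene was called. AUTS2 (chr7:69598296-70793506, + strand), a gene of brain development whose protein joins these complexes with casein kinase 2, had 203 and 203 CPM in WT, 133 and 123 in clone 1, while clone 2 had 126 and 122. No knockout library came near WT, and the 2 clones overlapped each other. The log2 fold change was -0.69 ± 0.06 (SE, 95% interval -0.83 to -0.55, adjusted p = 3.71e-05), a 1.61-fold decrease. PCGF3 stood at 96.5 and 102 CPM in WT, 99.4 and 102 in clone 1, while clone 2 had 105 and 104. Its log2 fold change of 0.05 ± 0.06 (SE, 95% interval -0.09 to 0.19, adjusted p = 0.581) leaves room for only a small change, although 23.2% of its exon bases lie under genes on the other strand, 22.0% under PCGF3-AS1. PCGF5 stood at 9.7 and 8.81 CPM for WT, while clone 1 had 11.1 and 13.1 CPM and clone 2 had 11.3 and 9.72 CPM. All knockout libraries lay above WT, but the second of clone 2 was almost level with the first of WT. The log2 fold change was 0.29 ± 0.15 (SE, 95% interval -0.05 to 0.63, adjusted p = 0.159).

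**Figure D3:**
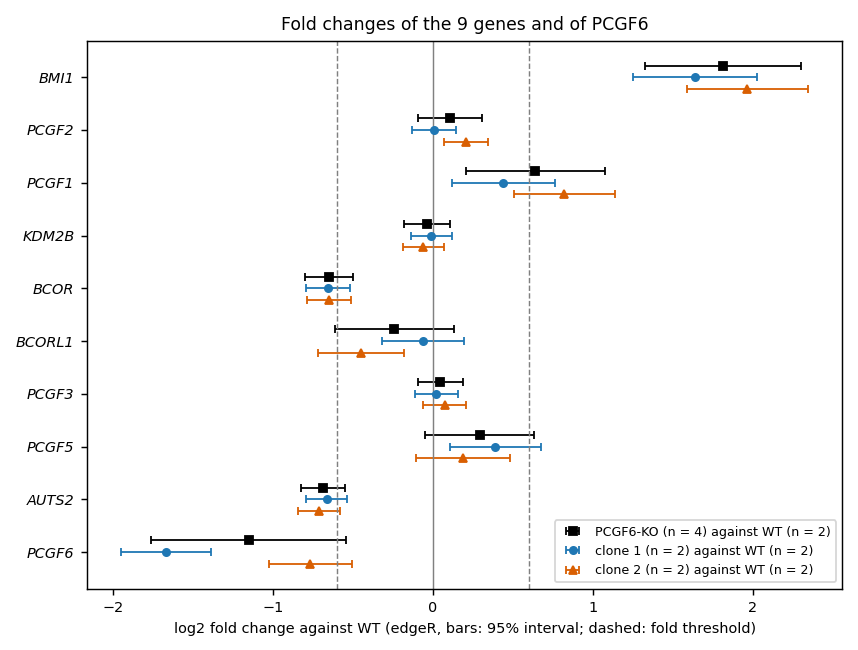
Log2 fold change against WT with its 95% interval (edgeR) for the 9 members and PCGF6, for the 4 knockout libraries together (black squares), clone 1 (blue circles) and clone 2 (orange triangles), each against the 2 WT libraries, with dashed lines at the fold threshold of 0.6 in both directions. BMI1 lies between 1.64 and 1.97, BCOR and AUTS2 lie just beyond the lower line in all 3, and PCGF1 passes the upper line in clone 2 and not in clone 1.

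Each clone was also compared with WT alone. The 2 comparisons share the WT libraries, so their values are given side by side and are not independent. In clone 1, 3 of 9 members (33.3%) were called, against 24.8% of all genes, and by adjusted p alone 5 (45.3% of all genes). In clone 2, 4 members (44.4%) were called, against 29.4% of all genes, and by adjusted p alone 6 (50.4% of all genes). The log2 fold change of BMI1 was 1.64 ± 0.19 (SE) in clone 1 and 1.97 ± 0.18 in clone 2, that of BCOR -0.65 ± 0.07 in each, and that of AUTS2 -0.67 ± 0.06 and -0.71 ± 0.06. These 3 genes were the members called in clone 1, with adjusted p values of 5.43e-08, 6.04e-09 and 1.52e-09. PCGF1 joined them in clone 2, at 0.82 ± 0.15 (SE, adjusted p = 6.88e-05). In clone 1 its log2 fold change was 0.44 ± 0.16, under the fold threshold (adjusted p = 0.0239).

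The members that passed by adjusted p alone differed between the clones. PCGF5 had a log2 fold change of 0.39 ± 0.14 (SE, adjusted p = 0.0236) in clone 1 and 0.19 ± 0.14 (adjusted p = 0.288) in clone 2. PCGF2 stood at 0.01 ± 0.07 (adjusted p = 0.959) in clone 1 and 0.20 ± 0.07 (adjusted p = 0.0126) in clone 2. BCORL1 stood at -0.06 ± 0.12 (adjusted p = 0.712) and -0.45 ± 0.13 (adjusted p = 0.00569). PCGF3 and KDM2B passed in neither clone, with log2 fold changes from -0.06 to 0.07. Single libraries decided the calls near the fold threshold. Without WT replicate 2, BCOR was -0.58 in each clone and not called. Without replicate 2 of clone 1, BCOR was -0.57 and AUTS2 -0.59 in that clone, so that only BMI1 was called there. Without WT replicate 1, PCGF1 was called in clone 1, at 0.65.

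Set directly against each other, the clones did not differ in any member by both criteria, where 7.87% of all genes did. By adjusted p alone 2 members differed, PCGF2 and BCORL1, where 19.5% of all genes did, and at an unadjusted p under 0.05 there were 4, with PCGF1 and BMI1, where 30.8% of all genes passed. DESeq2 called 0 by both criteria as well. PCGF2 was higher in clone 2 than in clone 1 by 0.20 ± 0.07 on the log2 scale (SE, adjusted p = 0.0348), and BCORL1 was lower by a log2 difference of -0.39 ± 0.13 (adjusted p = 0.0365). For PCGF1 the log2 difference of clone 2 from clone 1 was 0.38 (95% interval 0.08 to 0.68, adjusted p = 0.0666), and for BMI1 it was 0.33 (95% interval 0.02 to 0.64, adjusted p = 0.138). BCOR at 0.01 (95% interval -0.13 to 0.14) and AUTS2 at -0.05 (95% interval -0.18 to 0.08) had intervals that leave room for small differences only.

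To show how the make-up of PCGF transcripts shifted, the counts per kilobase of the 6 PCGF genes were summed in each library and each gene was given as a share. PCGF6 held 9.39% and 10.3% of this sum in WT, while it held 2.92% and 3.37% in clone 1 and 5.15% and 5.03% in clone 2. BMI1 held 1.23% and 1.22% in WT, while it held 3.24% and 4.59% in clone 1 and 3.91% and 4.6% in clone 2. The share of BMI1 was thus above that of PCGF6 in both libraries of clone 1 and below it in both of clone 2. The mean share of BMI1 was 1.23% in WT and 4.08% in the knockout, a difference of 2.86 percentage points. The exact two-sided permutation p over 15 arrangements of the libraries, taken as 2 times the one-sided p of 0.0667, was 0.133. That is the smallest p that 2 against 4 libraries can give in this way, however far apart the groups lie. The test also treats libraries of the same clone as independent, so no conclusion is drawn from it. With exon bases not shared with another gene as the length, a choice made after the data were seen, the difference was 1.7 points (0.745% and 2.44%). On that length PCGF6 held 4.5% and 4.95% in WT and 1.37% to 2.44% in the knockout libraries, and in replicate 2 of clone 2 BMI1, at 2.76%, stood above PCGF6, at 2.39%.

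The other PCGF genes kept most of the sum. PCGF2 held 59.9% ± 0.548 in WT (SD, n = 2) and 60.9% ± 1.8 in the knockout (n = 4), and PCGF3 held 22.9% ± 0.863 and 22.4% ± 1.53. PCGF1 held 4.77% and 3.64% in WT and 5.71% to 6.87% in the knockout libraries, with no overlap. PCGF5 held 2.0% and 1.82% in WT and 1.79% to 2.83% in the knockout libraries, which overlapped. Over unshared exon bases the mean WT share of PCGF2 was 75.0%, that of PCGF3 15.5%, that of PCGF1 3.14% and that of PCGF5 0.92%, so the size of these shares depends on the length used. The share of a gene falls when another gene rises, so these shares are not independent of one another.

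**Figure D4:**
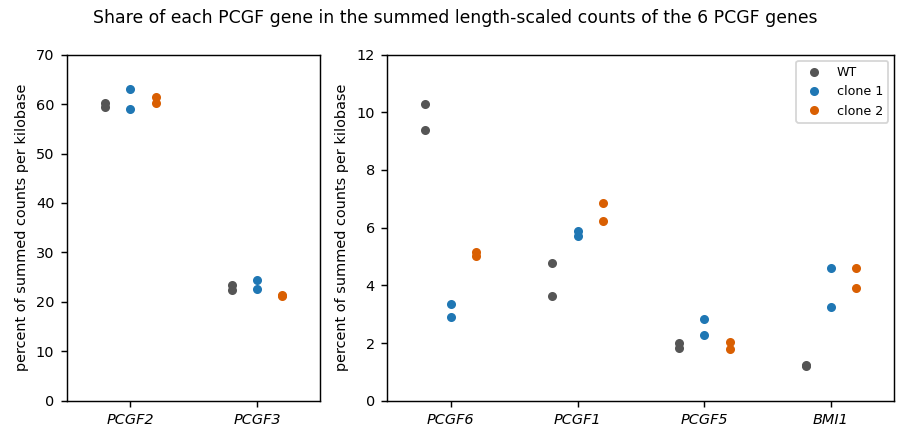
Share of each PCGF gene, in percent of the summed counts per kilobase of the 6 PCGF genes, with 1 point per library (grey WT, blue clone 1, orange clone 2) and separate axes for the 2 abundant genes (left) and the 4 others (right). PCGF6 drops from 9.39% and 10.3% to between 2.92% and 5.15%, BMI1 climbs from 1.23% and 1.22% to between 3.24% and 4.6%, and PCGF2 holds between 58.9% and 63.1% in every library.

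The remaining PRC1 subunits, taken from lists by complex, give the surroundings of these genes. Of 33 such genes, all tested, 8 were called in the knockout (24.2%, 4 higher and 4 lower), close to the 23.6% of all genes, with a median log2 fold change of 0.00. The canonical complexes, to which BMI1 and PCGF2 belong, held 5 of the 8: of 9 such genes 2 were called higher and 3 lower, where 23.6% of all genes were called. In clone 1, 4 of these 9 were called (24.8% of all genes), and in clone 2, 7 (29.4% of all genes), where CBX6 (-0.86 ± 0.10) and CBX7 (-0.68 ± 0.25) were lower as well. CBX8 (log2 fold change 1.76 ± 0.31, SE, adjusted p = 0.00214) and PHC2 (1.22 ± 0.21, adjusted p = 0.00214) rose. CBX2 (-0.96 ± 0.07, adjusted p = 1.35e-05), PHC1 (-0.90 ± 0.08, adjusted p = 5.68e-05) and SCMH1 (-0.66 ± 0.12, adjusted p = 0.00255) fell. Per length, the 2 that rose were lower in WT (0.145 and 1.54 CPM per kilobase) than the 3 that fell (8.08 to 129 CPM per kilobase). CBX8 stood at 0.491 and 0.719 CPM in WT and 1.73 to 2.31 in the knockout libraries, and CBX2 at 189 and 190 CPM in WT and 91.8 to 106 in the knockout libraries. CBX proteins read H3K27me3, and PHC proteins polymerise through their SAM domain.

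Among the subunits that other complexes use, few were called by both criteria, where 23.6% of all genes were. By adjusted p alone, 17 of the 33 genes in all lists passed (51.5%), against 37.1% of all genes. Outside the canonical list, 2 of 4 RING1 and RYBP subunits and 2 of 2 for PRC1.1 did. For PRC1.3 and PRC1.5 it was 3 of 6, and for PRC1.6 it was 4 of 12. YAF2, which takes the place of RYBP in the PCGF1, PCGF3, PCGF5 and PCGF6 complexes, rose from 1.9 and 1.38 CPM in WT to between 8.0 and 11.5 CPM in the knockout libraries (log2 fold change 2.60 ± 0.24, SE, adjusted p = 4.81e-05). It was the only called gene of the 4 RING1 and RYBP subunits. RYBP had a log2 fold change of 0.51 ± 0.07, under the fold threshold although its adjusted p was 0.00079. RING1 and RNF2 had log2 fold changes of 0.10 (adjusted p = 0.366) and 0.15 (adjusted p = 0.214). For PRC1.1, 0 of 2 further subunits were called by edgeR, USP7 at 0.23 ± 0.07 and SKP1 at 0.29 ± 0.06, although both passed by adjusted p alone (0.023 and 0.00568). FBRS (0.86 ± 0.10, adjusted p = 0.000177) was the 1 of 6 for PRC1.3 and PRC1.5. TFDP2 (-0.60 ± 0.07, adjusted p = 0.000149), a dimer partner of E2F proteins, was the 1 of 12 for PRC1.6. At -0.604 TFDP2 barely passed the fold threshold, and in clone 1, at -0.577, it was not called. The canonical gene CBX6, at -0.597 over both clones, barely missed that threshold.

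For each called member, the 2 PRC1 genes most like it over the 6 libraries were sought among 41 candidates, by the root mean square difference of their centred log2 CPM. BCOR and AUTS2 were nearest to each other or nearly so, at 0.06, and TFDP2 was as near to BCOR at 0.06 and stood at 0.08 from AUTS2. BMI1 was nearest to CBX8 at 0.24 and PHC2 at 0.27. PCGF1 was nearest to FBRS at 0.18 and to E2F6 at 0.19. E2F6, which was not called, had a log2 fold change of 0.55 ± 0.09 (SE). These distances describe 6 libraries of 3 lines.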

How the data were processed

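RNA-seq libraries of WT PGP1 cells (n = 2) and of PCGF6-KO clones 1 and 2 (n = 2 each) were analysed. The ChIP-seq was not analysed here. The authors used Trim Galore (v0.6.2) for trimming, HISAT2 (v2.1.0) for alignment against GRCh38 and featureCounts for counting per gene, and deposited raw counts with gene lengths. Annotation release, strand setting and handling of shared reads are not given in the sources used here.

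Counts were filtered (filterByExpr), scaled by TMM and tested with edgeR's (v4.0.16, R v4.3.3) quasi-likelihood test with Benjamini-Hochberg adjustment over the 17672 genes tested. The knockout was compared with WT in a fit of 2 genotypes, and the clones in a fit of 3 groups. A gene was called where the adjusted p was under 0.05 and the log2 fold change exceeded 0.6 in size. The study's methods set these thresholds for DESeq2. Its results name a fold change over 1.5 with p under 0.05, which was run here as an alternative. The script was tested on simulated counts. CPM used TMM-scaled totals. Exon overlaps came from GENCODE release 44, promoters from RefSeq. Named were the 9 members, PCGF6, COMMD3, COMMD3-BMI1 and BMI1P1, other PRC1 genes that were called, and the 2 genes nearest to each called member, with a pseudocount of 0.5 CPM. RING1, RNF2, RYBP, USP7, SKP1, CBX6, CBX7, KDR, NES, OTX2, SOX2, NANOG and the markers at 0 were added after their values were seen. The members and lists were chosen with earlier results of these data known. Alternatives were other scalings, filters and thresholds, DESeq2 (v1.42.0), a replicate block and leaving out each library. An item of the PRC1 lists is not reported here. The total counts limit the precision of low genes such as BMI1.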

Additional observations from a re-analysis of the deposited data

Results flagged for a closer look

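PCGF2 and BCORL1 differed between the 2 knockout clones by the adjusted p of edgeR's quasi-likelihood test of clone 2 against clone 1, with log2 differences of 0.20 (adjusted p = 0.0348) and -0.39 (adjusted p = 0.0365). Both clone 2 libraries of PCGF2 lay above both clone 1 libraries, and both clone 2 libraries of BCORL1 lay below them. Neither difference reached the fold threshold of 0.6. No group of libraries was large enough for a check of single outlying libraries except the 4 knockout libraries, in which no member had one. Those libraries come from 2 clones, so a difference between the clones enters their spread and the check is weak.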

How the results depend on the processing

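The number of members called in the knockout against WT was 4 under every scaling and filter, under DESeq2, and by adjusted p alone, and ranged from 2 to 4 when 1 library was left out. In clone 1 it was 3, or 5 by adjusted p alone, and 1 to 4 with a library left out. In clone 2 it was 4, or 6 by adjusted p alone, and 3 to 4. Between the clones it was 0, or 2 by adjusted p alone. Over all genes, the number called in the knockout was 4167, 3953 with DESeq2, 3110 when no library might hold under 10 counts of a gene, and 6556 by adjusted p alone. By adjusted p alone it also went from 4379 to 8002 in clone 1, from 5197 to 8904 in clone 2 and from 1390 to 3442 between the clones, where DESeq2 called 810. Replicate differences correlated at 0.08 between WT and each clone and at 0.2 between the clones, over 13420 genes. Whether the replicate numbers pair the libraries was not tested further. With the number as a replicate block, 3 members were called in the knockout, since the adjusted p of PCGF1 was 0.0502, and no other call of a member changed. The BMI1 share differed by 2.68 to 3.14 points with 1 library left out.

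Sign changes were seen only for log2 values near 0 that passed no test. Against WT in clone 1, PCGF2 was -0.015 with upper-quartile scaling and -0.001 with DESeq2, PCGF3 was -0.00021 with upper-quartile scaling, and KDM2B was 0.012 with at least 10 counts required. With 1 library left out, PCGF2 ranged from -0.079 to 0.104, PCGF3 from -0.019 to 0.066, KDM2B from -0.082 to 0.077 and BCORL1 from -0.163 to 0.050. Between the clones, BCOR was -0.019 with upper-quartile scaling and -0.007 in a fit of those 4 libraries, and with 1 library left out BCOR ranged from -0.066 to 0.079, KDM2B from -0.128 to 0.030 and AUTS2 from -0.113 to 0.018. The cause was not tested. Upper-quartile scaling shifted the median of all genes to -0.029.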
